A study of Homo sapiens with 18 samples.

Results

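The genes described here are 29 genes of cholesterol synthesis and uptake, chosen by their known function, with earlier results of these data known. They are enzymes that build cholesterol, 3 enzymes that build fatty acids, the proteins that regulate both pathways, and proteins that carry sterols within cells or out of them. On the array, 27 of the 29 had at least 1 probe set annotated to that gene alone, and where there were several, the brightest over all arrays was used. Of the 27 genes, 25 were bright enough to be tested, among 12171 genes tested of 19775 with a probe set. By their names, many of the probe sets used may also bind related transcripts, among them those of PMVK, ACAT2, FASN, ACLY, ABCG1, HSD17B7 and TM7SF2. The sterol carrier NPC1L1 and the efflux pump ABCA1 were left out of the test as too dim, and the squalene synthase gene FDFT1 and the sterol demethylase gene CYP51A1 were not analysed here, because no probe set was annotated to either gene alone.

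The samples were human mammary epithelial cells of the MCF10A line, an immortalised, nonmalignant line that lacks CDKN2A and has an amplified MYC gene, measured on 18 Affymetrix whole-genome expression arrays. MC26 was derived from unsorted MCF10A cells by culturing them for a long time with BMP2, a growth factor of the bone morphogenetic family, and with IL6, a cytokine. M1B26 was derived in the same way from MCF10A cells first sorted for the BMP receptor BMPR1B, and was expanded from 3 colonies picked in soft agar, so that it stands for few founder cells. MCF10A-CT was the control line, kept in standard medium. All lines grew with horse serum, insulin, hydrocortisone, cholera toxin and EGF, and MC26 and M1B26 cultures also received IL6 at 10 ng/ml and BMP2, for which the labels state both 5 and 10 ng/ml. Each line was measured as CD10+ cells and as CD10- cells, both stained and sorted by flow cytometry after trypsin treatment, and as unsorted cells, which were washed and frozen. CD10 is a surface peptidase encoded by MME. There were 2 arrays in each of the 9 groups, labelled biological replicates 1 and 2 and called number 1 and number 2 here.

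Cells make cholesterol from acetyl-CoA, first through mevalonate and the isoprenoids and then through squalene and a chain of sterols. Most enzymes of the pathway are switched on together by SREBP-2, the product of SREBF2, while the related SREBP-1, from SREBF1, acts more on fatty acid genes. When membrane sterol is low, the escort protein SCAP carries the SREBP precursors out of the endoplasmic reticulum to be cut and released, and when it is high, INSIG1 holds them back. Sterol excess has its own sensors, the LXR receptors, which switch on efflux pumps such as ABCA1 and ABCG1. Mammary epithelium uses these pathways for membranes and, in lactation, for milk fat.

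Values are MAS5 intensities, a linear measure of brightness that cannot be set side by side between probe sets, so each gene was compared only with itself. Differences are on the log2(intensity + 1) scale, where 1 means close to 2-fold, and were tested with limma in a fit of the 9 group means, two-sided. A gene is said to be higher or lower, to rise or to fall only where its Benjamini-Hochberg adjusted p over all 12171 genes was under 0.05. Errors after ± are standard errors of the difference, and each group had n = 2 arrays. The fit counted the CD10+ and CD10- arrays of 1 number as independent, although they deviated together, as given below. Errors of averages over populations and of sorted minus unsorted cells may therefore be too small. Genes whose mean over the 18 arrays was at or under intensity 14.3, the median over all probe sets, were not tested, and a group mean at or under it is called near background.

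The arrays resembled each other, with correlations between replicates of 0.937 to 0.954. MME followed the sort: it read 69.8 and 90.7 in MC26 CD10+ cells against 27.8 and 6.39 in MC26 CD10- cells, 1269 and 1021 against 56.4 and 15.9 in M1B26, and 48.3 and 65.0 against 9.73 and 11.3 in MCF10A-CT. Epithelial markers were present in every array, with a mean log2 level of 9.62 to 11.80 over the 3 basal markers measured and of 7.38 to 9.37 over 5 luminal markers. The 5 mesenchymal markers averaged 11.37 and 11.39 in the M1B26 CD10+ arrays and 7.35 to 9.42 in the other arrays, and 4 of the 5 were higher in CD10+ than in CD10- cells of M1B26 (median 3.27). The luminal markers were lowest in the same M1B26 CD10+ arrays, at 7.38 and 7.49, with 3 of the 4 tested lower and 1 higher than in CD10- cells. The 4 adipocyte markers, a possible outside source of lipid genes, were all too dim to test (mean log2 1.45 to 2.69), as were 4 of 5 fibroblast, 2 of 4 leukocyte and 2 of 3 endothelial markers. A list of 10 genes of the G2 and M phases averaged 9.30 to 10.24 in MC26 arrays, 9.39 to 10.12 in M1B26 arrays and, among MCF10A-CT arrays, 8.08 to 8.57 in sorted and 10.05 to 10.26 in unsorted cells. In the averages over populations all 10 were higher in MC26 and in M1B26 than in MCF10A-CT. In unsorted cells alone 0 of 10 differences were above 0 in either line, with medians of -0.34 in MC26 and -0.39 in M1B26, and 0 were called. The part of these levels in the results below was not tested.

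The cholesterol genes varied more than most genes between arrays of the same group. The spread between the 2 arrays of a group, pooled over the 9 groups, had a median SD of 0.58 on the log2 scale over the 25 genes, against 0.30 over all genes tested. It exceeded that all-gene median in 21 of 25, and in 16 it exceeded the upper quartile of all genes. INSIG1 varied most, with an SD of 1.03. The efflux pump ABCG1 followed with 0.91, HMGCS1, which makes the precursor of mevalonate, with 0.87, the mevalonate decarboxylase MVD with 0.81 and the fatty acid synthase FASN with 0.80. The mevalonate kinases were the steadiest of the enzymes, with 0.17 for PMVK and 0.21 for MVK, and the escort SCAP had 0.21. SREBF2 itself, with 0.28, lay just below the all-gene median.

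**Figure D1:**
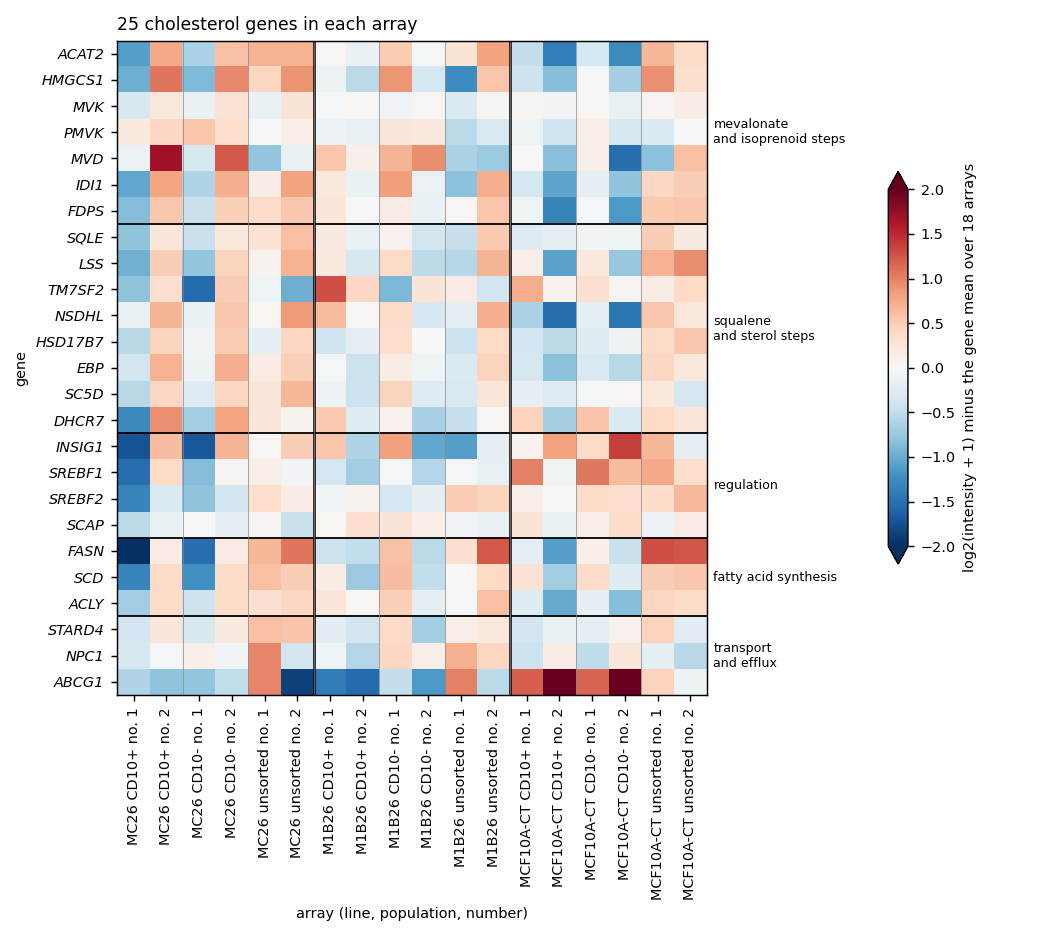
The 25 tested cholesterol genes (rows, grouped by role) in each of the 18 arrays (columns, by line, population and array number); colour gives log2(intensity + 1) minus the gene's mean over the 18 arrays. Number 1 of both sorted MC26 populations is blue in nearly all rows (24 of 25 genes lower than number 2 in CD10+ cells and 22 of 25 in CD10- cells), and among sorted cells ABCG1 is highest in the 4 MCF10A-CT arrays.

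In MC26 most of these genes differed more between the arrays of sorted than of unsorted cells, with ABCG1, NPC1 and SCAP the other way; the SD of ABCG1 was 0.15 in CD10+, 0.21 in CD10- and 2.01 in unsorted MC26 cells. In number 1 of MC26 CD10+ cells 24 of the 25 genes were lower than in number 2, by a median of 1.06 on the log2 scale, and 16 differed at least 2-fold. Among all genes 70.5% were lower there, with a median difference of -0.19, and 5.11% differed at least 2-fold. In MC26 CD10- cells 22 of 25 were lower in number 1, with a median of -0.84 and 10 genes at least 2-fold apart, although all genes together went slightly the other way (34.6% lower, median 0.11). INSIG1, whose protein is both an SREBP target and a brake on SREBP, shows the size of it: 248 and 1275 in CD10+ cells, 255 and 1319.9 in CD10- cells and 848 and 1161 in unsorted cells. HMGCS1 in the same line read 281 and 1168 in CD10+ cells, 299 and 1076 in CD10- cells and 749.7 and 1039 in unsorted cells, and DHCR7, which carries out the last step of the main route to cholesterol, read 201 and 931 in CD10+ cells, 305 and 854 in CD10- cells and 582 and 516 in unsorted cells. For all 3 genes both sorted arrays of number 1 were far below both of number 2, and the unsorted arrays lay between them or near number 2.

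The other lines ran the other way and less far. In M1B26 number 1 was the lower array in 4 of 25 genes in both sorted populations, with median differences of number 1 minus number 2 of 0.32 in CD10+ cells and 0.57 in CD10- cells. In MCF10A-CT it was the lower array in 5 of 25 among CD10+ cells and 7 of 25 among CD10- cells, with medians of 0.48 and 0.41. Among unsorted cells the genes stood 18 of 25 lower in number 1 of M1B26 (median -0.52), 16 of 25 in MC26 (median -0.17) and 11 of 25 in MCF10A-CT (median 0.07). INSIG1 was an exception in MCF10A-CT, where number 2 of the sorted cells was the higher array: 881 and 1441 in CD10+ cells, 1076 and 2156 in CD10- cells and 1315 and 723 in unsorted cells. Which difference between cultures or preparations the numbers stand for is not given in the labels.

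**Figure D2:**
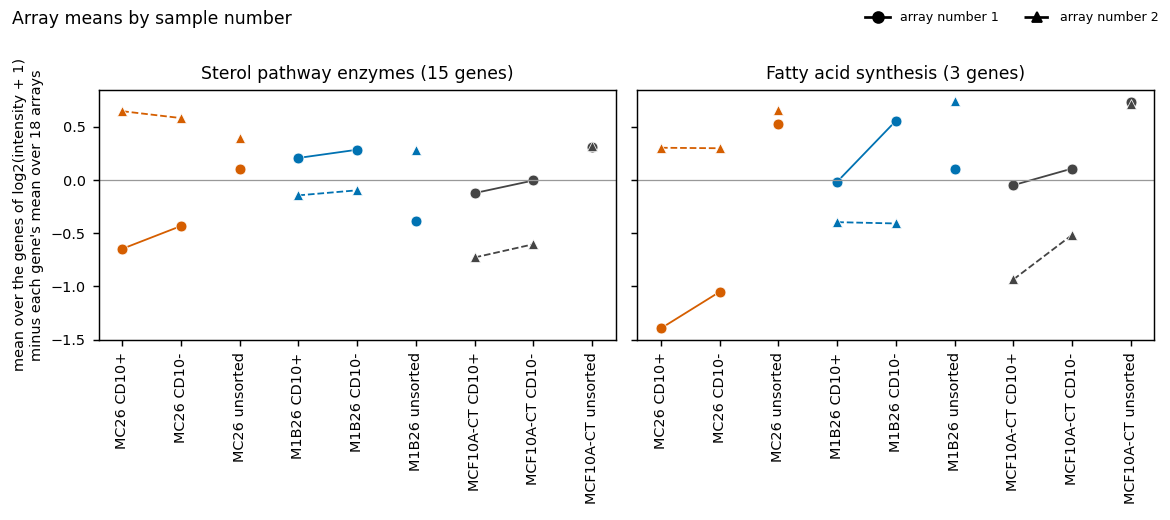
Mean over the genes of log2(intensity + 1) minus each gene's mean over the 18 arrays, for the 15 tested sterol pathway enzymes and the 3 fatty acid genes; circles are arrays of number 1 and triangles of number 2, and lines join the CD10+ and CD10- arrays that share a number. For the sterol enzymes in MC26 number 1 lies at -0.65 in CD10+ and -0.43 in CD10- cells, and number 2 at 0.65 and 0.58, while for the fatty acid genes in M1B26 number 1 lies at -0.01 in CD10+ and 0.56 in CD10- cells, and number 2 at -0.40 and -0.41.

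The first comparison asked which of these genes differ in the transformed lines, averaged over the 3 populations. Against MCF10A-CT, MC26 had higher PMVK and NSDHL, 2 enzymes of the pathway, and lower SREBF1, SREBF2 and ABCG1. M1B26 had lower SREBF1 and ABCG1 and no tested member higher. The steepest differences were those of ABCG1, at 0.272 times the MCF10A-CT level in MC26 and 0.257 times in M1B26. Over the 25 genes, 15 of 25 had a difference above 0 in MC26, with a median of 0.16 against 0.08 over all genes, and 11 of 25 in M1B26, with a median of -0.02 against 0.19. For all genes tested, 19.7% were called higher and 11.5% lower in MC26, where 2 and 3 of the 25 were, and 27.0% higher and 7.61% lower in M1B26, where 0 and 2 of the 25 were. With these bulk samples, a change in the share of some cells cannot be told from a change of RNA per cell. Transformation, the history of each line and the BMP2 and IL6 in its medium cannot be told apart in this design.

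The all-gene split depends on the scaling of the arrays. With quantile normalization 1878 genes were higher and 2032 lower in MC26, and with arrays centred on the tested genes 2237 and 1884, against 2396 and 1405 as deposited. The median of the cholesterol genes in MC26, 0.16 as deposited, turned to -0.02 with quantile normalization, where that of all genes was -0.01, and was 0.08 with centring, where that of all genes was 0.01. In M1B26 1649 were higher and 1805 lower with quantile normalization, 1816 and 1710 with centring, and 3284 and 926 as deposited. The median of all genes in M1B26, 0.19 as deposited, was -0.01 under both other scalings, and the median of the cholesterol genes was -0.26 with quantile normalization and -0.22 with centring. The higher calls of PMVK and NSDHL in MC26 were not made after quantile normalization, which called 0 members higher and 4 lower there, while centring called 2 and 4.

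Among the 7 mevalonate and isoprenoid enzymes, all 7 differences were above 0 in MC26 (0.02 to 0.67, median 0.39) and 5 of 7 in M1B26 (-0.06 to 0.65, median 0.37). In unsorted cells alone, 4 of 7 were above 0 in MC26 (median 0.03) and 1 of 7 in M1B26 (median -0.28). PMVK, which adds the second phosphate to mevalonate, was the member of this role that passed the test. PMVK in MC26 read 703 and 819 in CD10+ cells, 904 and 785 in CD10- cells and 604 and 674 in unsorted cells. PMVK in M1B26 read 567 and 551 in CD10+ cells, 724 and 697 in CD10- cells and 419 and 495 in unsorted cells, and in MCF10A-CT it read 576 and 462 in CD10+ cells, 663 and 488 in CD10- cells and 505 and 609.6 in unsorted cells. The ranges overlapped, but 5 of the 6 MC26 arrays were above every MCF10A-CT array. PMVK rose by 0.44 ± 0.12 in MC26 (adjusted p = 0.0124) and differed by 0.05 ± 0.12 in M1B26 (adjusted p = 0.775).

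Of the 8 squalene and sterol enzymes, 5 differences were above 0 in MC26 and 4 in M1B26. In unsorted cells alone, 3 were above 0 in MC26 and 1 in M1B26. NSDHL, a dehydrogenase that helps strip the methyl groups from carbon 4 of the sterol ring, was the only one of them called. NSDHL in MC26 read 263 and 463 in CD10+ cells, 264 and 422 in CD10- cells and 299 and 521 in unsorted cells. NSDHL in M1B26 read 452 and 291 in CD10+ cells, 378 and 229.7 in CD10- cells and 254 and 481 in unsorted cells. NSDHL in MCF10A-CT read 187 and 101 in CD10+ cells, 252 and 105 in CD10- cells and 419.7 and 334 in unsorted cells. In sorted cells every MC26 array was above every MCF10A-CT array, and the 2 lowest of all 18 arrays were number 2 of the sorted MCF10A-CT populations, while in unsorted cells the lines overlapped. NSDHL rose by 0.82 ± 0.27 in MC26 (adjusted p = 0.0339), and in M1B26 the difference was 0.72 ± 0.27 (adjusted p = 0.0543). The MC26 call was lost without any single one of the 6 arrays of number 2 in these lines (0.61 to 0.76, adjusted p 0.0883 to 0.108). The second NSDHL probe set gave 0.65 ± 0.25 in MC26 and 0.61 ± 0.25 in M1B26.

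The 4 regulators all had differences below 0 in both lines, with a median of -0.74 in MC26 and -0.51 in M1B26. SREBF1 in MC26 read 69.0 and 267 in CD10+ cells, 110.2 and 209 in CD10- cells and 219 and 194 in unsorted cells. SREBF1 in M1B26 read 157 and 124 in CD10+ cells, 197 and 133 in CD10- cells and 196 and 182 in unsorted cells. SREBF1 in MCF10A-CT read 404 and 189.5 in CD10+ cells, 418 and 314 in CD10- cells and 340.2 and 256 in unsorted cells. In MCF10A-CT 4 of the 6 arrays were above every array of the transformed lines, number 2 of the unsorted cells lay within the MC26 range, and number 2 of the CD10+ cells lay within the range of both. SREBF1 fell by 0.93 ± 0.29 in MC26 (adjusted p = 0.0233) and by 0.92 ± 0.29 in M1B26 (adjusted p = 0.0220).

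The SREBF1 calls leaned on single arrays. Each was lost without MCF10A-CT unsorted number 1 or MCF10A-CT CD10+ number 1; the MC26 call was also lost without MC26 unsorted number 2, CD10- number 1 or CD10+ number 1 (-0.90 to -0.61 over these 5, adjusted p 0.0518 to 0.0770), and the M1B26 call without number 2 of any M1B26 population (-0.91 to -0.74 over its 5, adjusted p 0.0521 to 0.0593). Without both sorted MC26 arrays of number 1, the MC26 difference was -0.45 (adjusted p = 0.166). A dimmer second probe set for SREBF1 gave 0.67 ± 0.67 in MC26 and 0.06 ± 0.67 in M1B26. The mean of both did not pass the test in MC26 (-0.13, adjusted p = 0.852) or in M1B26 (-0.43, adjusted p = 0.485). Both SREBF1 calls were also lost in an ordinary test without limma's sharing of error between genes.

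SREBF2 differed in MC26. SREBF2 in MC26 read 42.7 and 89.1 in CD10+ cells, 62.4 and 84.3 in CD10- cells and 139 and 121 in unsorted cells. SREBF2 in M1B26 read 105 and 115 in CD10+ cells, 86.5 and 94.8 in CD10- cells and 155 and 149.7 in unsorted cells. SREBF2 in MCF10A-CT read 119.9 and 110.4 in CD10+ cells, 142 and 138 in CD10- cells and 141 and 172 in unsorted cells. All 4 sorted MC26 arrays lay below every MCF10A-CT array, with number 1 of each population the lowest. SREBF2 fell by 0.70 ± 0.17 in MC26 (adjusted p = 0.00661), and the difference in M1B26 was -0.24 ± 0.17 (adjusted p = 0.287); the difference between the transformed lines, M1B26 minus MC26, was 0.46 ± 0.17 (adjusted p = 0.115). Its other probe sets gave -0.47 ± 0.21 and 0.20 ± 0.23 in MC26, and the mean of all 3 did not pass the test (-0.32, adjusted p = 0.179).

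The stretches before the start of 3 called genes are shown for the motifs they hold of SREBP or of its partner NF-Y: SREBF2, the regulator, holds both, and FDPS and NSDHL, enzymes it is known to control, hold that of NF-Y. Each run is the 250 bases before the annotated start in RefSeq (GRCh38.p14), read 5′ to 3′ on the strand of the gene, which is the plus strand for all 3. Capitals mark TCACNCCAC, the core of a sterol regulatory element, and CCAAT, the box bound by NF-Y, on either strand, so that ATTGG is a CCAAT box on the other strand.
SREBF2 (chr22:41832855-41833104): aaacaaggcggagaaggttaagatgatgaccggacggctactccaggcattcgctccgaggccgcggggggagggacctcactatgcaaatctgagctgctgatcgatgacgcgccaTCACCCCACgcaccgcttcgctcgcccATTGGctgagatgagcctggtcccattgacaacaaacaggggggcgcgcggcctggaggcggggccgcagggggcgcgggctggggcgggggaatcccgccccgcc
FDPS (chr1:155308616-155308865): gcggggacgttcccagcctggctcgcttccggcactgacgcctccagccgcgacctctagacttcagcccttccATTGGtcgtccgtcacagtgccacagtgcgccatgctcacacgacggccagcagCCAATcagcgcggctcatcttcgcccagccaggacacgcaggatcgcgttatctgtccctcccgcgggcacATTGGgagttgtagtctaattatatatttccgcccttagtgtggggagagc
NSDHL (chrX:152830813-152831062): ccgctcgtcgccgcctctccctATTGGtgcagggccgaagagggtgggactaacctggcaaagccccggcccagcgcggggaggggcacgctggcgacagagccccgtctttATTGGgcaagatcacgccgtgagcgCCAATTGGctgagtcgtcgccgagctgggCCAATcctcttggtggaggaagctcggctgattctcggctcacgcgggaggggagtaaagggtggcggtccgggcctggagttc

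SREBF2 was the only one of the 24 members with such a stretch in the table to hold the sterol core, as TCACCCCAC starting 133 bases before the start, and it also held a CCAAT box on the minus strand. The core was found in 0.905% of all 27305 stretches of the same length and in 0.888% of the 9915 that belong to genes tested here. FDPS held 3 CCAAT boxes and NSDHL 5, of which 2 on opposite strands overlap by 2 bases in the run CCAATTGG. In all, 17 of the 24 members held at least 1 CCAAT box (70.8%), against 32.9% of all stretches and 35.0% of those of tested genes. PMVK and SREBF1, both called above, held neither motif. These matches describe letters and say nothing of binding in these cells.

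The 3 fatty acid genes and the carriers STARD4 and NPC1 did not pass the test between lines: FASN, SCD and ACLY gave -0.42 to 0.30 in MC26 and -0.13 to 0.43 in M1B26. ABCG1, a pump that passes cholesterol to high density lipoprotein, was the exception among the transport genes. ABCG1 in MC26 read 62.5 and 53.9 in CD10+ cells, 54.5 and 67.4 in CD10- cells and 188 and 25.3 in unsorted cells. ABCG1 in M1B26 read 35.4 and 32.2 in CD10+ cells, 68.2 and 42.4 in CD10- cells and 192 and 64.8 in unsorted cells. ABCG1 in MCF10A-CT read 219 and 488 in CD10+ cells, 214 and 586 in CD10- cells and 131 and 89.0 in unsorted cells. In sorted cells the 8 arrays of the transformed lines lay between 32.2 and 68.2, and the 4 MCF10A-CT arrays between 214 and 586, with no overlap. In unsorted cells the lines overlapped, and both transformed lines had 1 array above both MCF10A-CT arrays.

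ABCG1 fell by 1.88 ± 0.42 in MC26 (adjusted p = 0.00414) and by 1.96 ± 0.42 in M1B26 (adjusted p = 0.00287) in the average over populations. For this average both calls were made under every alternative run and with each array left out. The difference then lay between -2.35 and -1.40 in MC26 and between -2.22 and -1.70 in M1B26. All 4 ABCG1 probe sets were lower in both lines, by -3.00 to -0.98 in MC26 and -3.19 to -0.83 in M1B26. The 2 dimmest of them lay only just above the low limit. Unsorted cells alone did not show the fall in both lines. The ABCG1 difference there was 0.05 for M1B26 and -0.63 for MC26, and neither was called. The runs on the average do not separate sorted from unsorted cells.

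**Figure D3:**
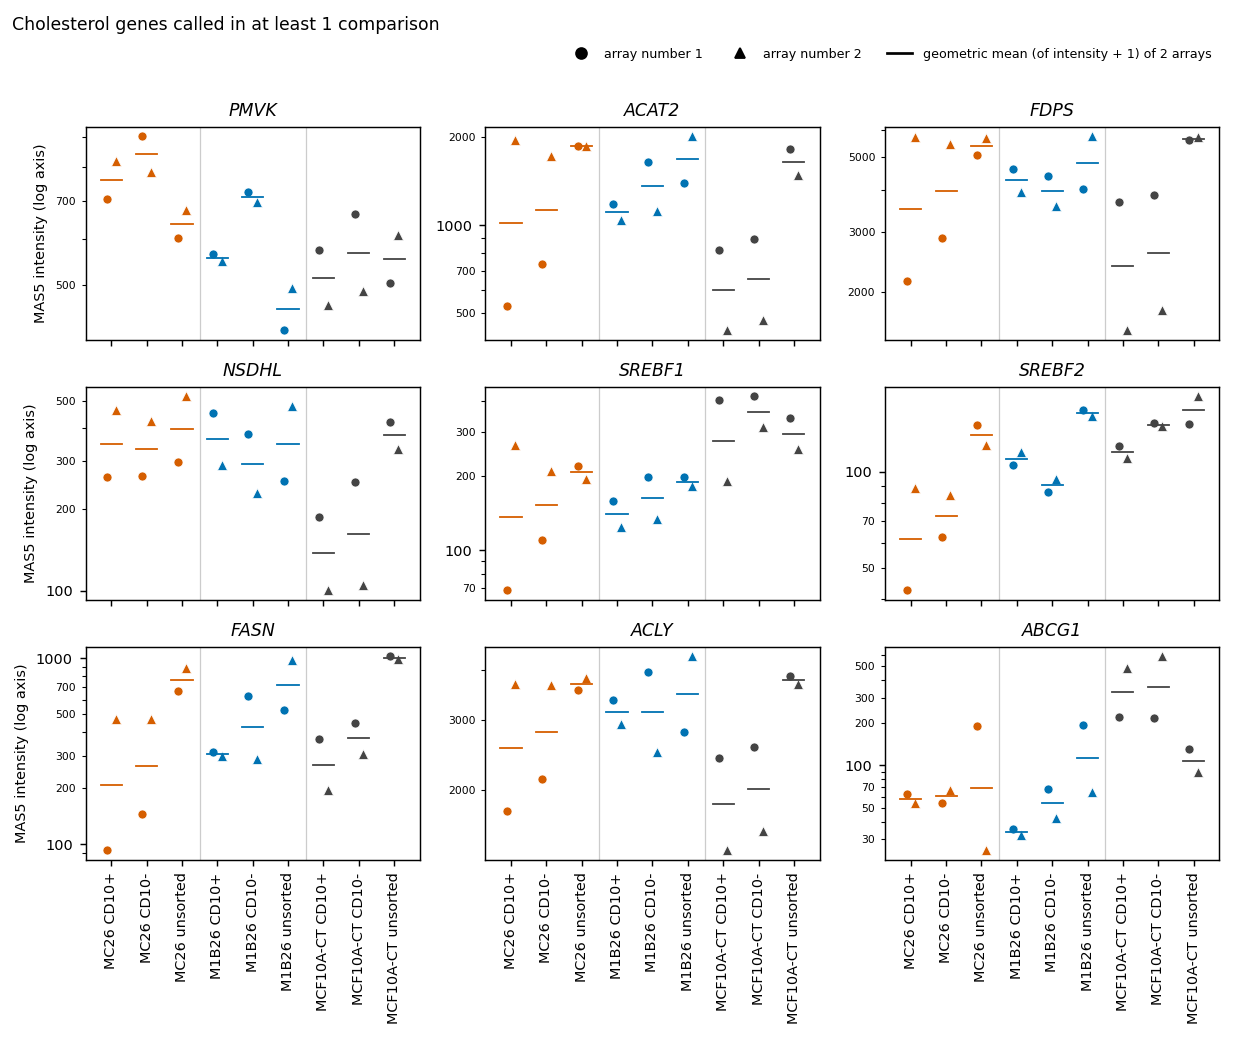
MAS5 intensity (log axis) of the 9 cholesterol genes called in at least 1 comparison, in the 9 groups of 2 arrays; circles are number 1, triangles number 2, and bars the mean of each pair on the log scale. ABCG1 in sorted cells is at 32.2 to 68.2 in both transformed lines and at 214 to 586 in MCF10A-CT, while in unsorted cells the lines overlap.

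The lines were also compared within each population. The median over the 25 members in M1B26 was 0.19 in CD10+ cells (16 of 25 above 0; all genes 0.31), 0.20 in CD10- cells (15 of 25; all genes 0.23) and -0.28 in unsorted cells (5 of 25; all genes 0.01), and in MC26 it was 0.15, 0.10 and -0.03 (13, 14 and 11 of 25; all genes 0.08, 0.13 and 0.02). Among unsorted cells 0 of 25 members were called in MC26 (0.320% of all genes) and 0 of 25 in M1B26 (0.674%), by limma. At an unadjusted p under 0.05 there were 0 and 1 members, against 972 and 879 of all 12171 genes. Among CD10- cells MC26 had 2 lower (20.0% of all genes were called), SREBF2 by 0.94 ± 0.29 (adjusted p = 0.0347) and ABCG1 by 2.53 ± 0.72 (adjusted p = 0.0251), while in M1B26 ABCG1 alone was called, with a difference of -2.70 ± 0.72 (26.4%, adjusted p = 0.0144). Among CD10+ cells ABCG1 fell by 2.47 ± 0.72 in MC26 (13.5%, adjusted p = 0.0357) and by 3.24 ± 0.72 in M1B26 (26.4%, adjusted p = 0.00573), and NSDHL rose by 1.39 ± 0.47 in M1B26 (adjusted p = 0.0418). The M1B26 CD10+ arrays are those with the high mesenchymal and low luminal levels given above, whose part in these differences was not tested.

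These single-population calls rest on pairs of 2 arrays. Both MC26 calls of ABCG1 were lost without number 2 of the MCF10A-CT population compared or without either MC26 array of it (-2.68 to -1.80 in CD10- cells and -2.58 to -1.90 in CD10+ cells, adjusted p 0.0828 to 0.272), and without both sorted MC26 arrays of number 1 (adjusted p = 0.159 and 0.137). The M1B26 calls of ABCG1 were lost without number 2 of MCF10A-CT in that population, and in CD10- cells also without number 2 of M1B26 (-2.66 to -1.97, adjusted p 0.0737 to 0.151). The SREBF2 call was lost without any of its 4 arrays (-1.15 to -0.73, adjusted p 0.0598 to 0.223), and the NSDHL call without either M1B26 CD10+ array, MCF10A-CT CD10+ number 2 or either unsorted MCF10A-CT array (0.95 to 1.71, adjusted p 0.0522 to 0.320), as well as under 6 of the 8 other settings run, quantile normalization and centring among them.

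No member passed the test between the transformed lines. Averaged over populations, M1B26 minus MC26 gave 0 of 25 calls by limma, against 8.09% of all genes. At an unadjusted p under 0.05 there were 3 of 25 members and 2742 of all 12171 genes. The median over the members was -0.02, with 11 of 25 above 0, and PMVK came nearest to the threshold at -0.39 ± 0.12 (adjusted p = 0.0566). Quantile normalization and centring each called 1 member lower. All genes were split into 799 higher and 186 lower as deposited, 431 and 306 with quantile normalization, and 400 and 367 with centring.

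The next comparison set sorted cells, the mean of CD10+ and CD10- cells, against unsorted cells. Across the lines, FASN, ACAT2 and SREBF2 were lower in sorted cells, and 19 of 25 members had a difference below 0, with a median of -0.37 against -0.05 over all genes. Of all genes tested 6.81% were called higher in sorted cells, where 0 of 25 members were, and 8.44% lower, where 3 of 25 were. At an unadjusted p under 0.05 there were 12 of 25 members and 3824 of all 12171 genes. By role, the median was -0.63 over the 3 fatty acid genes, -0.44 over the 7 mevalonate and isoprenoid enzymes, -0.33 over the 8 squalene and sterol enzymes, -0.25 over the 3 transport genes and -0.09 over the 4 regulators. The members with differences above 0 were PMVK, MVD, TM7SF2, INSIG1, SCAP and ABCG1, none of them called.

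**Figure D4:**
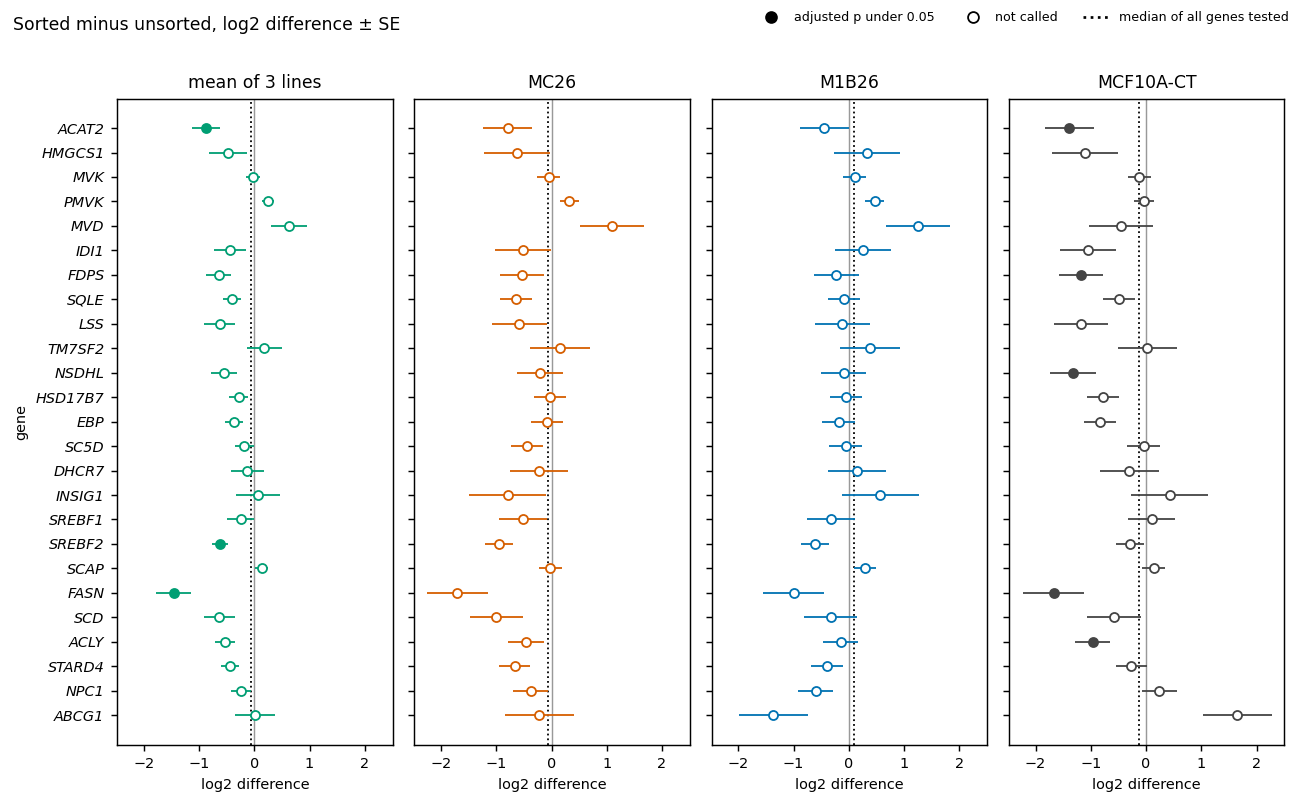
Difference between sorted and unsorted cells for each of the 25 genes (rows) on the log2(intensity + 1) scale, with standard errors, averaged over the 3 lines and in each line; filled points passed an adjusted p under 0.05, and the dotted line is the median of all genes tested. Points lie left of 0 for 19 of 25 genes in the average; 3 are filled there and 5 in MCF10A-CT.

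FASN, which builds palmitate, differed most. FASN in MC26 read 93.2 and 469.8 in CD10+ cells, 146 and 469.9 in CD10- cells and 663 and 882 in unsorted cells. FASN in M1B26 read 312 and 298 in CD10+ cells, 629.5 and 289 in CD10- cells and 525 and 984 in unsorted cells. FASN in MCF10A-CT read 367 and 196 in CD10+ cells, 450.5 and 306 in CD10- cells and 1024 and 995 in unsorted cells. In MC26 and MCF10A-CT every sorted array was below both unsorted arrays, and in M1B26 number 1 of the CD10- cells reached into the unsorted range. FASN fell by 1.46 ± 0.32 in sorted cells (adjusted p = 0.00742). A second, dim FASN probe set that lay under the low limit gave -0.03 ± 0.39, and the mean of both did not pass the test (-0.74, adjusted p = 0.0928).

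ACAT2, the thiolase that joins acetyl-CoA units at the head of the pathway, behaved similarly in MCF10A-CT. ACAT2 in MC26 read 532 and 1940.5 in CD10+ cells, 739 and 1713 in CD10- cells and 1850.4 and 1857 in unsorted cells. ACAT2 in M1B26 read 1181 and 1040.4 in CD10+ cells, 1639 and 1119 in CD10- cells and 1392 and 2005 in unsorted cells. ACAT2 in MCF10A-CT read 819 and 439.8 in CD10+ cells, 899.6 and 474 in CD10- cells and 1819.5 and 1478 in unsorted cells. Sorted and unsorted arrays did not overlap in MCF10A-CT, while in MC26 number 2 of the CD10+ cells was above both unsorted arrays. ACAT2 fell by 0.88 ± 0.25 in the average (adjusted p = 0.0313). This call was lost without any of 8 single arrays (-0.93 to -0.77, adjusted p 0.0528 to 0.0999), which were all the unsorted arrays but M1B26 number 1, number 1 of MC26 CD10- and number 2 of both sorted M1B26 populations, and without the 4 sorted MCF10A-CT arrays, a setting chosen after the data were seen (-0.62, adjusted p = 0.180).

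SREBF2, whose values are given above, fell by 0.61 ± 0.15 in sorted cells (adjusted p = 0.0115). In each line the unsorted arrays were the brightest or among the brightest, and in M1B26 and MC26 they lay above all 4 sorted arrays. Its other probe sets gave -0.28 ± 0.18 and 0.05 ± 0.20, and the mean of all SREBF2 probe sets did not pass the test (-0.28, adjusted p = 0.210). Several enzymes also had probe sets that differed in sign in this comparison: HMGCS1 gave -0.47 ± 0.35 and 0.68 ± 0.42, SQLE between -0.82 and 0.43 over 4 probe sets, and LSS between -0.63 and 0.75 over 3.

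In MCF10A-CT alone 5 of 25 members were lower in sorted cells, where 22.2% of all genes were called: ACAT2 by 1.39 ± 0.44 (adjusted p = 0.0356), FDPS by 1.18 ± 0.40 (adjusted p = 0.0459), NSDHL by 1.32 ± 0.41 (adjusted p = 0.0326), FASN by 1.67 ± 0.55 (adjusted p = 0.0414) and ACLY by 0.96 ± 0.32 (adjusted p = 0.0422). All genes there split into 801 higher and 1904 lower, or 1394 and 1581 with quantile normalization, which called 1 member, NSDHL, and 1418 and 1499 with centring, which called 2. In MC26 0 of 25 were called (0.822% of all genes), and in M1B26 0 of 25 (4.21%). Each line had 4 members at an unadjusted p under 0.05, against 1768 of all 12171 genes in MC26 and 2242 in M1B26. The all-gene split in M1B26 was 312 higher and 201 lower, or 247 and 342 with quantile normalization and 268 and 343 with centring. Each of the 5 calls in MCF10A-CT was lost without either unsorted array or number 2 of either sorted population, and FDPS, FASN and ACLY also without some arrays of M1B26 (adjusted p 0.0504 to 0.210 over the 5 genes); their number was between 0 and 8 with single arrays left out.

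FDPS, which makes farnesyl diphosphate, and ACLY, which makes cytosolic acetyl-CoA from citrate, show the pattern in the sorted MCF10A-CT cells. FDPS in MC26 read 2144 and 5707 in CD10+ cells, 2881 and 5440.2 in CD10- cells and 5069 and 5686 in unsorted cells. FDPS in M1B26 read 4609 and 3943 in CD10+ cells, 4402 and 3579.7 in CD10- cells and 4009.9 and 5754 in unsorted cells. FDPS in MCF10A-CT read 3684 and 1543 in CD10+ cells, 3849 and 1767 in CD10- cells and 5605 and 5708 in unsorted cells. Number 2 of the sorted MCF10A-CT populations gave the lowest 2 of the 18 FDPS values, and number 1 of the sorted MC26 populations the next lowest. ACLY in MC26 read 1773 and 3692 in CD10+ cells, 2140.0 and 3670.5 in CD10- cells and 3566 and 3823 in unsorted cells. ACLY in M1B26 read 3368 and 2930.4 in CD10+ cells, 3960.0 and 2498 in CD10- cells and 2792 and 4324 in unsorted cells. ACLY in MCF10A-CT read 2413 and 1418 in CD10+ cells, 2561 and 1585 in CD10- cells and 3857 and 3677 in unsorted cells. For both genes the unsorted cells of MC26 and MCF10A-CT were close to each other and the sorted arrays of both lines were spread widely.

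Other quantities differed between sorted and unsorted cells as well. The ratio of the 3′ to the 5′ control probe set of ACTB, a sign of how far RNA or its copies are shortened, was 1.11 to 1.34 in the 12 sorted arrays and 1.56 to 2.14 in the 6 unsorted arrays, without overlap, while that of GAPDH was 0.930 to 1.06 in sorted and 0.946 to 1.10 in unsorted arrays. The G2 and M phase list was lower in sorted MCF10A-CT cells in 10 of 10 genes, and in 6 of 10 in the average over lines. The part of either in the lower cholesterol genes was not tested. Sorting, antibody staining and freezing cannot be told apart in this design.

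The sorted minus unsorted difference itself differed between lines for ABCG1. It was 1.65 ± 0.63 in MCF10A-CT and -1.37 ± 0.63 in M1B26, which gave a difference of differences, M1B26 minus MCF10A-CT, of -3.02 ± 0.89 (adjusted p = 0.0391), the 1 call among 25 members where 11.9% of all genes were called (1112 higher and 332 lower, or 712 and 722 with quantile normalization and 661 and 678 with centring). The call was lost in 13 of the 18 runs with 1 array left out, both unsorted MCF10A-CT arrays and number 1 of unsorted M1B26 among them (-3.29 to -2.24, adjusted p 0.0521 to 0.269). For MC26 minus MCF10A-CT 0 of 25 members were called (6.07% of all genes, 491 higher and 248 lower, or 658 and 525 with quantile normalization and 589 and 471 with centring). At an unadjusted p under 0.05 there were 0 members, against 2811 of all 12171 genes.

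The last comparison set CD10+ against CD10- cells. No member was called in the average over the lines (0 of 25 by limma, against 1.14% of all genes), although 22 of 25 differences were below 0, with a median of -0.15 against -0.04 over all genes. At an unadjusted p under 0.05 there were 0 members, against 1186 of all 12171 genes. In the single lines 0 of 25 were called as well, in MC26 (0% of all genes), M1B26 (6.50%) and MCF10A-CT (0%). Each line had 0 members at an unadjusted p under 0.05, against 100, 2361 and 166 of all genes in that order.

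In sorted cells these genes differed more by array number than by CD10. The gap between numbers was larger than the gap between CD10+ and CD10- arrays of the same number in 21 of 25 members in MC26, 17 of 25 in M1B26 and 20 of 25 in MCF10A-CT, against 40.0%, 26.2% and 63.9% of all genes. The median gaps over members were 0.95 between numbers against 0.22 between CD10 populations in MC26, 0.43 against 0.35 in M1B26 and 0.66 against 0.22 in MCF10A-CT.

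The arrays of 1 number in the CD10+ and CD10- cells of a line deviated together, with correlations across genes of 0.36 in MC26, 0.18 in M1B26 and 0.63 in MCF10A-CT, so the sorted arrays were also fitted with the number as a block. In that fit, added after the data were seen, 2 of 25 members were lower in CD10+ cells in the average over lines (9.19% of all genes were called): FASN by 0.43 ± 0.12 (adjusted p = 0.00665) and HSD17B7, a ketosteroid reductase that completes the removal of the carbon 4 methyl groups, by 0.34 ± 0.12 (adjusted p = 0.0389). In M1B26, whose CD10+ arrays had the high mesenchymal and low luminal levels given above, 4 of 25 were called (21.1%), and the part of those levels was not tested. HMGCS1 was lower by 0.58 ± 0.20 (adjusted p = 0.0237), the lysosomal cholesterol exporter NPC1 by 0.60 ± 0.20 (adjusted p = 0.0161) and ABCG1 by 0.66 ± 0.24 (adjusted p = 0.0380), while TM7SF2, a sterol C14 reductase, was higher by 1.16 ± 0.40 (adjusted p = 0.0232). In MC26 and MCF10A-CT the blocked fit called 0 of 25 (0.173% and 0.641% of all genes). This fit leaves few arrays to estimate each gene's own error, and limma draws that error towards those of other genes. In the average the errors of FASN and PMVK were both 0.12. The errors and p-values of this fit therefore do not measure the spread between a gene's own pairs alone.

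HSD17B7, whose only probe set may by its name also bind related transcripts, and FASN were compared pair by pair. HSD17B7 in CD10+ cells read 355 and 711 in MC26, against 503 and 741 in CD10- cells of the same numbers, 396 and 458 against 666 and 516 in M1B26, and 399.9 and 359 against 441 and 484 in MCF10A-CT, lower in CD10+ cells in 6 of 6 pairs. FASN, given above, was clearly lower in CD10+ cells in 4 of 6 pairs, while number 2 of MC26 was level and number 2 of M1B26 slightly higher in CD10+ cells. TM7SF2 in M1B26 was dim, at 74.1 and 40.0 in CD10+ cells against 15.6 and 36.2 in CD10- cells, and its difference lay mostly in number 1. Over all members, CD10+ was below CD10- in both pairs in 6 of 25 in MC26, 12 of 25 in M1B26 and 19 of 25 in MCF10A-CT, against 29.2%, 31.8% and 31.5% of all genes.

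The members that were not called in the main fit are given by role. MVK, in the mevalonate steps, was the flattest, at 191 to 292 in all 18 arrays, while MVD was dim and ranged between 14.4 and 140.2, and the isomerase IDI1 ranged between 767 and 2859. Among the sterol enzymes, the squalene epoxidase SQLE ranged between 1697 and 4516, the cyclase LSS between 289 and 1154, the isomerase EBP between 758 and 2223, the desaturase SC5D between 560.0 and 1305, and HSD17B7 between 355 and 758. The desaturase SCD, which makes oleate, ranged between 1414 and 5485, with its lowest 2 values in number 1 of the sorted MC26 cells. The sterol carrier STARD4 ranged between 257 and 624, NPC1 between 437 and 1294, and SCAP between 220.0 and 411.

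The 2 members too dim to test were efflux and uptake proteins. ABCA1, which loads cholesterol onto apolipoproteins, was near background in 7 of the 9 groups. ABCA1 in M1B26 read 42.1 and 54.4 in CD10+ cells, 16.1 and 14.5 in CD10- cells and 18.9 and 10.4 in unsorted cells, in MC26 it stayed between 2.63 and 12.6 and in MCF10A-CT between 6.86 and 13.3. Its brightest arrays were the 2 of M1B26 CD10+ cells, which lay above all others and are those with the high mesenchymal levels. In limma with no filter on low genes, ABCA1 in M1B26 differed by 1.09 ± 0.35 from MCF10A-CT (adjusted p = 0.0373) in the average over populations. From MC26 it differed by 1.62 ± 0.35 (adjusted p = 0.0146). Against MCF10A-CT the difference was 2.41 ± 0.60 in CD10+ cells (adjusted p = 0.0152), 0.26 ± 0.60 in CD10- cells and 0.59 ± 0.60 in unsorted cells. NPC1L1, known as the intestinal cholesterol importer, was near background in 8 of the 9 groups, with 1.15 as its lowest and 27.9 as its highest intensity. In the same unfiltered fit its sorted minus unsorted difference was 1.59 ± 0.40 in the average over lines (adjusted p = 0.0237), at these low levels.

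A list of 41 further genes of sterol, isoprenoid and fatty acid metabolism and its control, of which 35 were tested, was read in the same fit. In MC26 6 of the 35 were higher and 9 lower than in MCF10A-CT, where 19.7% of all genes were higher and 11.5% lower. FNTB, a farnesyltransferase subunit, fell by 1.77 ± 0.25 (adjusted p = 0.000257), the acyl-CoA synthetase ACSL1 by 1.12 ± 0.20 (adjusted p = 0.00108) and NR1H3, which encodes the sterol sensor LXR alpha, by 1.20 ± 0.23 (adjusted p = 0.00161). SOAT1, which esterifies cholesterol for storage, rose by 1.03 ± 0.18 (adjusted p = 0.000776).

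In M1B26 12 of the 35 were higher and 7 lower than in MCF10A-CT, where 27.0% of all genes were higher and 7.61% lower, a split that was 3284 and 926 genes as deposited but 1649 and 1805 with quantile normalization. SOAT1 rose by 1.15 ± 0.18 (adjusted p = 0.000344), the acyltransferase GPAM by 0.72 ± 0.17 (adjusted p = 0.00437), and MBTPS2 and MBTPS1, the proteases that cut SREBP precursors free, by 0.57 ± 0.13 (adjusted p = 0.00437) and 0.48 ± 0.12 (adjusted p = 0.00633). MBTPS1 was the 1 gene of the list called between the transformed lines, 0.51 ± 0.12 higher in M1B26 than in MC26 (adjusted p = 0.0124).

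Between sorted and unsorted cells 2 of the 35 were higher and 5 lower in sorted cells, where 6.81% of all genes were higher and 8.44% lower. ACACA, which commits acetyl-CoA to fatty acids, fell by 0.60 ± 0.10 (adjusted p = 0.00109) and MBTPS1 by 0.35 ± 0.10 (adjusted p = 0.0290), while FNTB rose by 1.12 ± 0.22 (adjusted p = 0.00397) and the citrate carrier SLC25A1 by 0.76 ± 0.17 (adjusted p = 0.00758). Between CD10+ and CD10- cells 0 of the 35 were called by limma in the average, where the smallest p belonged to ACSL1 (0.51 ± 0.20, adjusted p = 0.381).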

How the data were processed

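Per the submitters' processing notes, the authors made the deposited intensity values with the MAS5 algorithm in Affymetrix Expression Console, with no version given. The deposited intensity columns were linear, with 16.7 as the median of the array medians and upper quartiles of 95.1 to 124. The deposited table held 54675 probe sets, of which 41091 named 1 gene, 1801 several and 11721 none, and 62 were controls. The number of arrays limits the precision.

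Here log2(intensity + 1) was taken with no further scaling. The brightest probe set of each gene was kept, and genes whose mean over the 18 arrays was not above log2 3.93, the median over all probe sets, were left out. The 9 group means were fitted with limma 3.58.1 in R 4.3.3 (9 residual degrees of freedom), with Benjamini-Hochberg adjustment within each of 26 contrasts. The fit was checked on simulated data with independent arrays and a smaller spread than that of most cholesterol genes. This check gives no error rate for the data here. The p-values measure the spread between arrays that the labels call biological replicates. The main fit counted CD10+ and CD10- arrays of 1 number as independent, although they deviated together. Its standard errors for averages over populations and for sorted minus unsorted cells may therefore be too small, and its calls there too many. Every listed gene was accounted for by role, values in every array were given for those called in a comparison described, and up to 4 genes with the smallest p were named among the other pathway genes. The members and lists were chosen with earlier results of these data known. INSIG1, HMGCS1, DHCR7, HSD17B7 and TM7SF2 were given by array after their values were seen.

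Replicate numbers were checked for pairing. CD10+ and CD10- arrays of 1 number deviated together (r = 0.36 in MC26, 0.18 in M1B26 and 0.63 in MCF10A-CT), while unsorted and sorted arrays of 1 number did not in every case (-0.01 to 0.12). Alternatives were another pseudocount, no filter, quantile normalization, centring, the mean of all probe sets, a replicate block, an ordinary test without moderation and each array left out. Promoter sequence came from RefSeq.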

Additional observations from a re-analysis of the deposited data

Results flagged for a closer look

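ABCG1 differed between lines in how sorted cells compared with unsorted cells. The difference of differences, M1B26 minus MCF10A-CT, was -3.02 ± 0.89 on the log2 scale (limma, adjusted p = 0.0391), from -1.37 ± 0.63 in M1B26 and 1.65 ± 0.63 in MCF10A-CT. The call was lost with no filter on low genes, in the ordinary test, without both sorted MC26 arrays of number 1 (adjusted p = 0.0704), and in 13 of the 18 runs with 1 array left out.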

How the results depend on the processing

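The called differences of the 9 members called in the comparisons described kept their sign under the alternatives run for them, while the all-gene splits and the median of the members in MC26 turned with scaling, as given above. HSD17B7, TM7SF2 and the other pathway genes were not run under the alternatives gene by gene. In MC26 against MCF10A-CT 5 members were called, and 3 with the mean of all probe sets and 3 in the ordinary test. In M1B26 against MCF10A-CT 2 were called, and 1, 1 and 5 with the mean of all probe sets, in the ordinary test and with the replicate block within each line. Between M1B26 and MC26 0 were called, and 1 each with no filter, quantile normalization and centring. Between sorted and unsorted cells 3 were called, and 11 with the replicate block. Between CD10+ and CD10- cells 0 were called, and 2 with the block on the sorted arrays alone, added after seeing the data. With the replicate block MC26 against MCF10A-CT gave 7. Except for quantile normalization, centring and the block on the sorted arrays alone, the shares of all genes called under these settings are not given here. The counts are therefore no result about the cholesterol genes in particular. A block takes the spread between numbers out of the error, and the cause of these shifts was not tested.

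With single arrays left out the counts were 3 to 6 in MC26 and 1 to 4 in M1B26 against MCF10A-CT, 0 to 1 between M1B26 and MC26, 2 to 6 between sorted and unsorted cells, and 0 to 0 between CD10+ and CD10- cells. Without both sorted MC26 arrays of number 1, chosen after seeing the data, they were 7 in MC26 and 3 in M1B26 against MCF10A-CT, and 3 between sorted and unsorted cells. The shares of all genes called in these runs are not given here. With 2 arrays a group the calls in single populations rest on few values, and TM7SF2 and MVD lay at or near the low limit in some arrays.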
